A study of Mus musculus with 6 samples.

Results

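Lymphatic endothelial cells were a rare population of the developing mouse lung vasculature in these libraries, and 185 of them were found among 22641 gated endothelial cells (ECs) of 4 droplet libraries. A barcode was kept with at least 700 genes and 0.5% to 10% mitochondrial unique molecular identifiers (UMIs, which count captured RNA molecules), which left 38616 cells in the 4 libraries and 59793 in all 6 libraries of the series. ECs held at least 2 UMIs of Pecam1, Cdh5 and Cldn5 together and no more than 2 UMIs of the collagen genes Col1a1 and Col3a1. Lymphatic cells were the ECs with at least 5 Ccl21a UMIs and at least 1 UMI of Prox1, Mmrn1 or Reln. The levels of these genes therefore chose the cells, and they are given below as a description.

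The study followed Cxcl12-expressing endothelium in lungs that carried a DsRed reporter inserted at the Cxcl12 locus. The sorted libraries at embryonic day (E) 15.5 and E18.5 were of genotype Cxcl12DsRed/+, and their labels give only a Cxcl12+ sort. The paper removed cells with EpCAM or CD45 and sorted reporter cells with CD31 (the product of Pecam1). It also collected reporter cells without CD31. The EC gate passed 76.6% of the kept cells at E15.5 and 95.4% at E18.5. The whole-lung libraries at E18.5 had no reporter sort and were labelled Cxcl12DsRed/+ (control) and Cxcl12DsRed/DsRed (null). Time course suspensions were mixtures of several lungs, and each condition had 1 library, so no p-value or standard error can be given. Intervals in the text are exact 95% intervals that cover counting error only.

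Lymphatic vessels drain fluid and carry immune cells from the lung to the lymph nodes, and fetal lungs need them to clear fluid before breathing begins. Their endothelium arises largely from veins. The homeobox factor Prox1 sets and keeps its identity, and growth is driven by the ligand VEGF-C acting on the receptor Flt4 (VEGFR3) with the co-receptor Nrp2. The chemokine Ccl21a, released by these cells, draws dendritic cells and T cells that carry the receptor Ccr7.

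The whole-lung labels went against the Cxcl12 transcript. Over all kept cells Cxcl12 stood at 1.20 CPM (counts scaled to 1000000 UMIs) in the library labelled control and at 191 CPM in the library labelled null, against 636 and 1158 CPM in the sorted libraries. A Cxcl12 UMI was found in 3.49% of the other ECs of the library labelled control and in 37.5% of those of the library labelled null. Xist, transcribed in female cells, was also unequal, at 0.107 CPM in the library labelled control and 758 CPM in the library labelled null. The Y-linked Ddx3y stood at 74.2 and 35.3 CPM, so the library labelled null held transcripts of both. Genotype is therefore given below only as labelled. The whole lungs shared 140 barcodes, 1.58% of the smaller library, and other pairs shared 20 to 54. No lymphatic cell carried a shared barcode.

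The share of ECs that passed the lymphatic rule was near 1% or below in each library. It was 50 of 8923 ECs (0.560%, 0.416% to 0.738%) in the E15.5 sort and 107 of 9106 (1.18%, 0.964% to 1.42%) in the E18.5 sort. In whole lungs it was 9 of 1845 ECs (0.488%, 0.223% to 0.924%) in the library labelled control and 19 of 2767 (0.687%, 0.414% to 1.07%) in the library labelled null. The intervals of the sorted libraries did not overlap, and those of the whole lungs did. With a gate of at least 2 Prox1, Mmrn1 and Reln UMIs and no Ccl21a limit, the direction between the sorts turned, at 5.92% in the E15.5 sort and 1.56% in the E18.5 sort. Both sorts selected reporter fluorescence, which the whole lungs did not, and a share of ECs cannot tell more lymphatic cells from fewer cells of another kind. The E13.5 sort held 0 lymphatic cells among 169 gated ECs, which allows a share of up to 1.78% by a count of 3 (exact upper limit 2.16%), and the postnatal day 8 sort held 3 among 8311.

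**Figure D1:**
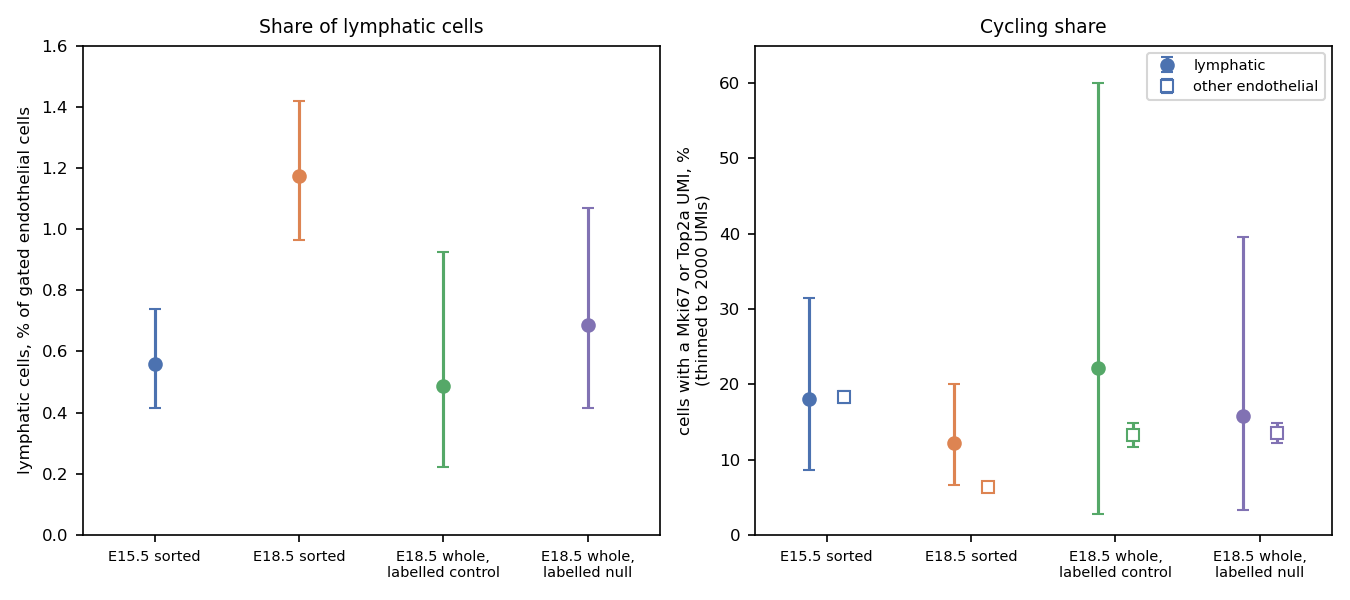
Left, lymphatic cells as a percentage of gated ECs in each library; right, percentage of lymphatic (filled circles) and other (open squares) ECs with a Mki67 or Top2a UMI after each cell was thinned to 2000 UMIs. Bars are exact 95% intervals for counting error; the sorted E18.5 share of 1.18% lies highest at left, and the lymphatic intervals at right are wide.

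Lymphatic cells held 537727, 1081050, 131574 and 312913 UMIs in all in the E15.5 sort, the E18.5 sort, the library labelled control and the library labelled null. All values below that come in fours follow this order. The median lymphatic cell held 9638, 8994, 13327 and 14530 UMIs, each above the median of the other ECs of its library (8442, 5595, 7691 and 8459). Cells of high UMI content can be doublets. The caller Scrublet marked 0 of 50, 21 of 107, 1 of 9 and 0 of 19 lymphatic cells, against 3.85% to 5.98% of all kept cells, and these cells were retained. Without them the lymphatic share of the E18.5 sort was 0.999%.

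Ccl21a lies at chr4:42772860-42773993 on the minus strand (GRCm38, GENCODE M21), within a cluster of near-identical copies, so a read can match more than 1 of them. The deposited tables count Gm21541, one of the copies, on its own, and it held 37, 28, 29 and 40 UMIs in lymphatic cells and 1, 0, 0 and 0 in the other ECs. A stretch of coding bases 70 to 210 is shown because it contains each of the 2 coding differences between Ccl21a and the copies, in capitals, in the annotated transcripts of GENCODE M21.
Ccl21a: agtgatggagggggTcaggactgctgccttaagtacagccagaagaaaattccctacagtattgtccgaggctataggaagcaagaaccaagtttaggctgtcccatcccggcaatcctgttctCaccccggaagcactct
Gm21541: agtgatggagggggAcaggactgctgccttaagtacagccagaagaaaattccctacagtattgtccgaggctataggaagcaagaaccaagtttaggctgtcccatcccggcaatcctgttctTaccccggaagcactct
The copies Gm13304, Ccl21b and Gm10591 have the second sequence over this stretch. The differences are T84A and C194T, with the Ccl21a base first and positions counted from 1 at the A of the start codon, and the 402 coding bases were 99.5% identical. The 3′ tag of a library reads the end of the transcript rather than the stretch shown. After the stop codon the annotated transcripts of Gm21541 and Gm13304 each differ from Ccl21a at 3 of 393 bases. A level of Ccl21a here is therefore the level of a gene with near-identical copies.

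The genes of the rule were abundant in the cells they chose. Ccl21a stood at 4993, 9195, 7608 and 7053 CPM in lymphatic cells and at 0.344, 1.59, 0.114 and 0.450 CPM in the other ECs, with a median of 55, 88, 120 and 105 UMIs a cell. Single cells ranged from 6 to 107, 5 to 260, 38 to 154 and 27 to 311 Ccl21a UMIs, so nearly all members lay far above the limit of 5. Just inside it, 3 cells of the E15.5 sort and 2 of the E18.5 sort held 5 to 9 Ccl21a UMIs. Just outside, 27, 80, 2 and 13 ECs held 1 to 4 Ccl21a UMIs, of which 7, 6, 0 and 2 had a Prox1, Mmrn1 or Reln UMI. No EC with at least 5 Ccl21a UMIs lacked all 3 of those genes. A Ccl21a UMI was found in 0.304%, 0.889%, 0.109% and 0.473% of the other ECs.

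Prox1 (chr1:190118035-190170714) stood at 312, 332, 433 and 454 CPM in lymphatic cells, against 1.03 to 3.13 CPM in other ECs. Reln (chr5:21884454-22344702), which encodes a secreted glycoprotein that lymphatic endothelium releases to muscle cells of collecting vessels, stood at 251, 666, 441 and 639 CPM against 0.0568 to 0.466 CPM. Mmrn1 (chr6:60924976-60989378), a secreted matrix glycoprotein also made by platelets, stood at 647, 1363, 1186 and 1611 CPM. In other ECs Mmrn1 was at 24.9 CPM in the E15.5 sort and at 5.02 to 5.85 CPM in the E18.5 libraries, so of the rule genes it was the least particular at E15.5. Among E15.5 ECs with no Ccl21a UMI, 475 held 2 or more UMIs of Prox1, Mmrn1 and Reln together, and 470 of these had Mmrn1. These cells summed to 165 Mmrn1 CPM with 4.03 CPM of Prox1, 0.939 CPM of Reln and no UMI of Thy1 or Pdpn. Flt4 (25.2 CPM), Nrp2 (48.7 CPM) and Lyve1 (52.6 CPM) were above their levels in the other ECs of that sort. The matching ECs numbered 30, 18 and 27 in the E18.5 libraries. Those of the E18.5 sort held 104 CPM of Prox1, 58.6 CPM of Flt4, 107 CPM of Nrp2 and 600 CPM of Lyve1. Reln, Thy1 and Pdpn were lower there, at 13.3, 8.00 and 2.67 CPM.

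**Figure D2:**
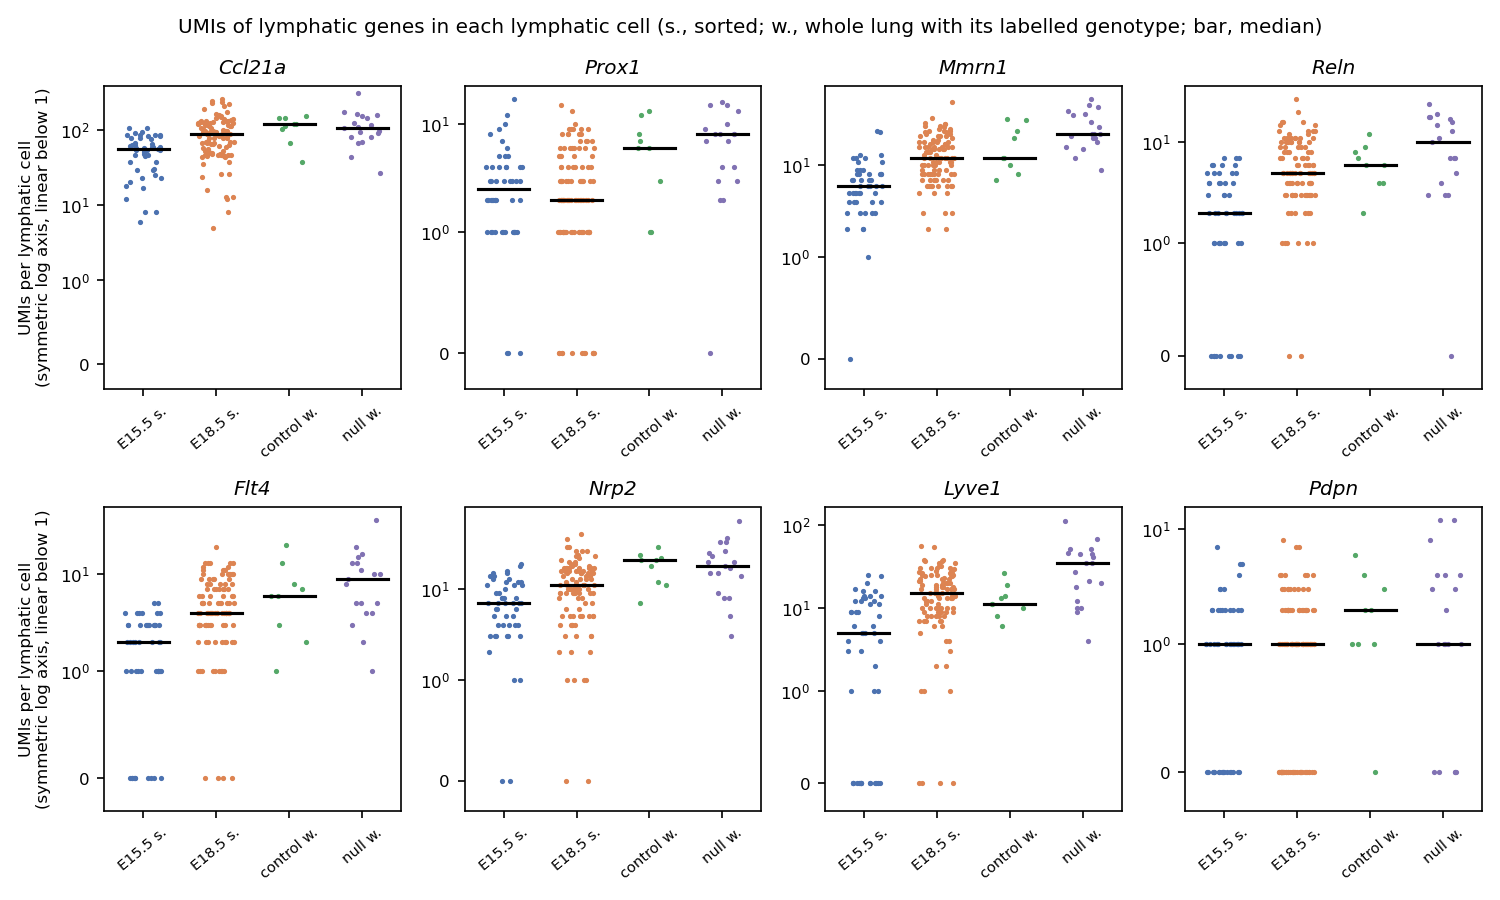
UMIs of 8 lymphatic genes in each of the 185 lymphatic cells (1 point a cell, bar at the median; symmetric log axis, linear below 1). Ccl21a medians of 55 to 120 UMIs stand above the other genes, and Prox1, the identity factor, has medians of 2 to 8 UMIs.

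The label was set beside 12 further lymphatic markers that the rule did not use. Of 2862 genes with 50 CPM or more in lymphatic or other ECs of every library, 102 (3.56%) were at least 2-fold higher in the lymphatic cells of all 4 libraries and 111 (3.88%) at least 2-fold lower. The direction was the same in all 4 libraries for 1383 (48.3%). Without the cells that Scrublet marked the counts were 108 and 122, and without the E15.5 sort 160 and 215. With the gate that has no Ccl21a limit they were 3 and 21. Of the 12 markers, 11 reached 50 CPM and all 11 were higher in all 4 libraries, with a median log2 ratio of 5.92 against -0.08 over all genes. The cells were chosen by genes that vary together with these. Markers such as Tbx1 and Pdpn also reached 50 CPM through the lymphatic cells alone, which fixed their direction beforehand. The counts therefore describe the population and test nothing, and the same limit applies to the gene lists below. Levels below are summed CPM. Log2 ratios compare lymphatic with other ECs of the same library after 0.5 CPM was added to each. They are given as the mean over the 4 libraries, in places with the SD. CPM of 3′ tags is not scaled by length, so a level is compared between cells and not between genes.

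Among 12 transcription factors of lymphatic development, 8 reached 50 CPM, and Prox1, Maf, Tbx1, Nr2f2 and Nfatc1 were higher in all 4 libraries and none lower. Prox1 is a rule gene, and without it 4 of 7 were higher. Maf, a bZIP factor of lymphatic identity, stood at 253, 359, 684 and 495 CPM in lymphatic cells and 2.70, 10.3, 62.5 and 30.7 CPM in other ECs, a log2 ratio of 4.70. The smaller ratios in whole lungs came with higher levels in the other ECs there. Tbx1, a T-box factor needed for lymphatic growth, stood at 108, 126, 91.2 and 115 CPM against 0.638 to 2.11 CPM (log2 5.92). Nr2f2, a factor of venous and lymphatic identity, stood at 195, 316, 258 and 399 CPM against 12.4 to 34.0 CPM (log2 3.80).

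Nfatc1, which acts in lymphatic valve formation, was at 65.1, 95.3, 60.8 and 79.9 CPM against 17.3 to 21.3 CPM (log2 1.97). Not every factor of the programme was higher. Sox18, which switches on Prox1 in the embryonic vein, differed by -0.16 (SD 0.21) on the log2 scale. Gata2, a valve and haematopoietic factor, was at 26.0, 48.1, 7.60 and 35.2 CPM in lymphatic cells against 50.8, 156, 88.5 and 77.3 CPM in other ECs, lower in each library. Hhex had a log2 ratio of -0.78. Foxc2, a factor of collecting vessels and valves, stayed near 50 CPM or below, at 26.0, 33.3, 30.4 and 57.5 CPM, but was higher in lymphatic cells of each library (log2 4.51, SD 1.74).

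The VEGF receptors split between the lineages. Flt4 (chr11:49609263-49652739), the VEGF-C receptor, stood at 182, 544, 502 and 604 CPM in lymphatic cells against 17.8, 30.1, 39.7 and 31.5 CPM (log2 3.84), and Nrp2 (chr1:62703285-62818695), its co-receptor, at 712, 1204, 1254 and 1234 CPM against 27.4, 25, 84.2 and 43.8 CPM (log2 4.73). Nrp1, the co-receptor of blood vessels, ran the other way, at 37.2, 69.4, 30.4 and 70.3 CPM against 284, 602, 425 and 413 CPM (log2 -3.09). Kdr (VEGFR2), which both lineages use, was near even at 372, 547, 585 and 546 CPM against 307, 413, 527 and 446 CPM (log2 0.28). Flt1 (VEGFR1) was at 33.5, 32.4, 15.2 and 22.4 CPM against 219 to 328 CPM (log2 -3.41).

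The ligand side of this axis was scarcely read in lymphatic cells. Vegfc held 7.44, 7.40, 0 and 6.39 CPM there against 107, 70.1, 30.3 and 43.3 CPM in other ECs. Ccbe1 and Adamts3, which together activate VEGF-C, and Svep1 had no UMI in any lymphatic cell. In other ECs they lay below the level that 3 UMIs would give in the lymphatic sum of each library, so these zeros show no difference. Of 9 genes of the angiopoietin, Tie and adrenomedullin axis, 4 reached 50 CPM, and 0 were higher and 1 lower in all 4 libraries. The lower gene was the adrenomedullin receptor Calcrl (log2 -1.65), while the angiopoietin co-receptor Tie1 was near even (0.13). Below that minimum, the Tie ligand Angpt2 was higher in each library, at 33.5, 38.9, 45.6 and 25.6 CPM against 2.77, 5.79, 12.3 and 7.34 CPM (log2 2.40).

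Of 9 surface and hyaluronan genes, 8 reached 50 CPM, 6 were higher in all 4 libraries and 0 lower. Pdpn (podoplanin), which separates lymph from blood vessels through platelets, stood at 123, 136, 152 and 182 CPM against 0.0918 to 2.22 CPM (log2 6.52). Thy1, a glycosylphosphatidylinositol-anchored protein to which leukocytes can bind, stood at 76.2, 256, 190 and 281 CPM. Thy1 was at 0.0230 and 0.207 CPM in other ECs of the sorts and had no UMI in those of the whole lungs, where 3 UMIs would make it at least 1114-fold and 2707-fold higher in lymphatic cells.

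The scavenger receptors Stab1 and Mrc1 were also higher. Stab1 stood at 519, 896, 851 and 1061 CPM against 45.8 to 106 CPM (log2 3.45), and Mrc1 at 63.2, 234, 296 and 278 CPM against 0.574, 2.19, 22.6 and 18 CPM (log2 4.98). Lyve1, the hyaluronan receptor often used to stain lymphatic vessels, was less exclusive. It stood at 630, 1658, 897 and 2106 CPM in lymphatic cells and 16.6, 375, 402 and 314 CPM in other ECs, ratios of 37.0-fold, 4.42-fold, 2.23-fold and 6.70-fold. Lyve1 thus separated lymphatic cells better in the E15.5 library than in those of E18.5, where other ECs carried it too.

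Outside the rule and ranked by mean log2 ratio, the 10 highest genes included Ptx3, Thy1, Slc45a3, Scn3a, Fxyd6, Fgl2, Apba2, Pdpn and Plce1. Ptx3 (chr3:66219910-66225805), a secreted pattern recognition protein, stood at 333, 610, 813 and 546 CPM, while other ECs held 0.115, 0.138, 0 and 0.104 CPM. In the library labelled control Ptx3 was at least 4770-fold higher, against 3 UMIs over the other ECs. Ptx3 UMIs were present in 31 of 50, 78 of 107, 9 of 9 and 16 of 19 lymphatic cells, with up to 42 UMIs in a cell. Slc45a3, a solute carrier, stood at 81.8, 229, 60.8 and 243 CPM against 0.0693 to 0.341 CPM (log2 7.55).

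Scn3a, a voltage-gated sodium channel, stood at 70.7, 153, 114 and 137 CPM against 0.161 to 0.346 CPM (log2 7.29). Fxyd6, a regulator of the sodium pump, stood at 353, 478, 312 and 361 CPM against 6.66, 2.79, 0.796 and 1.25 CPM (log2 7.10). Fgl2, a secreted fibrinogen-like immune regulator, stood at 270, 856, 357 and 946 CPM against 0.436, 4.31, 15.3 and 4.64 CPM (log2 6.92, and 3.56 against venous-gated ECs). Apba2, an adaptor protein, and Plce1, a phospholipase, were lower in level, at 50.2 to 80.5 and 55.8 to 78.6 CPM, with log2 ratios of 6.82 and 6.40. Other ECs of some libraries held 1 to 3 UMIs of Slc45a3, Scn3a and Apba2, so these mean ratios lean on the 0.5 CPM that was added. Compared with venous-gated ECs in place of all others, 75 of the 102 higher genes were at least 2-fold higher in all 4 libraries. The 102 genes were chosen against the other ECs, which include the venous-gated cells, so this count is no separate test. It is given without the share over all genes. The venous gate held 86, 121, 74 and 68 cells. The paper saw no DsRed in veins before birth, so the gated cells of the sorts may not be venous.

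Among 12 chemokine and leukocyte traffic genes other than Ccl21a, 0 reached 50 CPM in every library. The lymphocyte survival factor Il7 was at 26.0, 44.4, 22.8 and 16 CPM in lymphatic cells. Of 12 matrix genes 10 reached 50 CPM, and Reln, Mmrn1 and Lama4 were higher, of which only Lama4, a laminin chain of endothelial basement membrane, was no rule gene (195, 318, 372 and 339 CPM against 55 to 101 CPM, log2 1.99). The basement membrane collagens Col4a1 and Col4a2 had log2 ratios of -1.32 and -1.48.

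Of 12 junction genes 9 reached 50 CPM, and 3 of these are genes of the EC gate. The gap junction gene Gja1, used in lymphatic valves, was higher (169, 264, 304 and 489 CPM against 17.6 to 37.7 CPM, log2 3.44). Pecam1, Esam and Jam2 were lower in all 4 libraries. Esam, an adhesion molecule of tight junctions, stood at 106, 89.7, 53.2 and 47.9 CPM against 598, 844, 635 and 690 CPM (log2 -3.28), and Jam2 had a log2 ratio of -3.02. Of the genes of the EC gate, Cldn5 was near even (0.26), while Cdh5 (-0.91) and Pecam1 (-1.26) were lower.

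**Figure D3:**
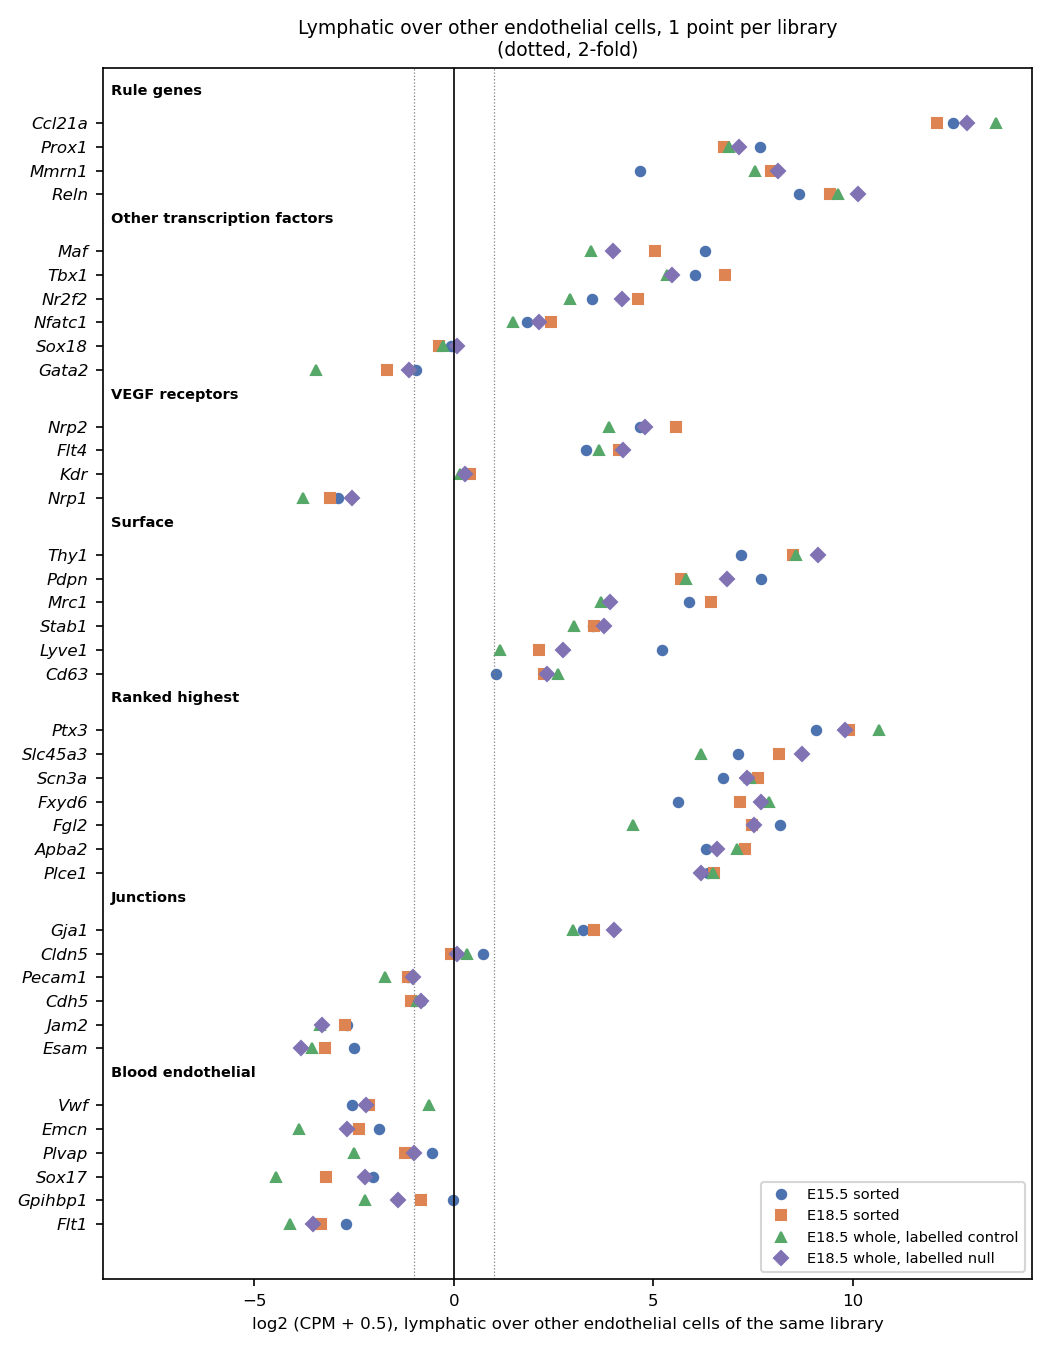
Log2 ratio of CPM plus 0.5 in lymphatic over other ECs for named genes, with 1 point for each library. Genes of the rule, Ptx3, Thy1 and Pdpn lie far to the right, Sox18, Kdr and Cldn5 lie near 0, and Nrp1, Esam, Jam2 and Flt1 lie to the left in all 4 libraries.

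The general blood endothelial genes were lower where they differed in all 4 libraries. Of 10 such genes 8 reached 50 CPM, and Flt1, Emcn, Sox17 and Sox7 were lower in all 4 libraries and none higher. Marker lists of single blood EC kinds were mixed. General capillary Ptprb and arterial Sox17 and Hey1 were lower in all 4 libraries, and venous Nr2f2 was higher. Fibin, listed for alveolar capillary cells, was also higher, by 221-fold, 88.7-fold, 14.7-fold and 48.9-fold. Emcn, a sialomucin of veins and capillaries, stood at 113, 177, 68.4 and 141 CPM against 418, 918, 1013 and 907 CPM (log2 -2.70). Sox17, an arterial factor, stood at 162, 94.4, 15.2 and 112 CPM against 658, 875, 346 and 530 CPM (log2 -2.98). Most of its UMIs lay in few cells, those with 3 or more Cxcl12 UMIs, which held 71 of 87 in the E15.5 sort, 57 of 102 in the E18.5 sort and 22 of 35 in the library labelled null. Lymphatic cells with no Cxcl12 UMI held 30.7, 53.7 and 47.5 CPM of Sox17 in these libraries. Among 8 Notch genes 6 reached 50 CPM, and the receptor Notch4 and the target Hey1 were lower (log2 -2.32 for Hey1).

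The 10 lowest genes by mean log2 ratio, Scn7a, Foxf1, Pltp, Palmd, Dach1, Pdgfb, Klk8, Mpped2, Notch4 and Tmem47, each had no UMI in the 9 lymphatic cells of the library labelled control, where 3 UMIs set the limit. Scn7a, a sodium channel of capillary ECs, stood at 24.2, 149, 0 and 38.3 CPM against 164, 1142, 848 and 869 CPM, at least 37.2-fold lower in the library labelled control. Foxf1, a forkhead factor of lung vessels, stood at 14.9, 23.1, 0 and 22.4 CPM against 91.0, 313, 272 and 319 CPM (at least 11.9-fold lower there). Pdgfb, which recruits pericytes, stood at 31.6, 33.3, 0 and 16 CPM against 145, 216, 181 and 200 CPM (at least 7.95-fold lower). With these bounds in place of the fitted values, mean log2 ratios over the 4 libraries were -3.84 for Scn7a, -3.42 for Foxf1 and -2.86 for Pdgfb, and the other 7 lay between -2.25 and -3.33. The order of the lowest genes is then not kept, since Rgcc (-3.50), Flt1 (-3.41), Mcam (-3.38) and Cd34 (-3.37) lie below most of them.

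Of the 111 lower genes, 94 had UMIs in the lymphatic cells of every library, and the 17 that did not were each at 0 in the library labelled control. The strongest of the 94 included Flt1, Rgcc, Mcam, Cd34 and Sparcl1. Cd34, a sialomucin of blood endothelium, was at 180, 77.7, 15.2 and 38.3 CPM against 516 to 592 CPM, and Sparcl1, a matrix protein, at 94.8, 208, 83.6 and 169 CPM against 478, 1825, 1723 and 1771 CPM.

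Transcripts of other cell types were unevenly present. Fibroblast markers, of which the EC gate capped Col1a1 and Col3a1, summed to 34.2 to 60.8 CPM in lymphatic cells, smooth muscle and pericyte markers to 7.60 to 22.3 CPM, immune markers to 0 to 30.4 CPM, and mesothelial markers to 0 in all 4 libraries. Erythroid markers (5 genes) summed to 5339 CPM in the E15.5 sort, where 4% of lymphatic cells held 3 or more such UMIs, and to 38.9, 30.4 and 3.20 CPM in the E18.5 libraries. Epithelial markers (6 genes) summed to 7.44, 20.4, 16303 and 63.9 CPM, with all 6 detected in the library labelled control, where 33.3% of the 9 cells held 3 or more. The part of the erythroid transcripts in the comparisons below was not tested, and counts without cells of 3 or more epithelial UMIs are given for the whole lungs.

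Cxcl12 itself was sparse in lymphatic cells, although the sorts had selected its reporter. A Cxcl12 UMI was found in 9 of 50, 22 of 107, 1 of 9 and 1 of 19 lymphatic cells (18%, 20.6%, 11.1% and 5.26%), against 63.0%, 57.5%, 3.49% and 37.5% of other ECs. Summed levels were 104, 142, 7.60 and 128 CPM against 752, 1249, 4.38 and 528 CPM. Few cells carried most of it, since 6 cells of the E15.5 sort held 53 of 56 Cxcl12 UMIs, 9 of the E18.5 sort held 141 of 154, and a single cell of the library labelled null held all 40.

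These cells with 3 or more Cxcl12 UMIs also stood apart in other measures. They held more UMIs, with medians of 16250 against 9002 in lymphatic cells without Cxcl12 at E15.5 and of 14877 against 8833 in the E18.5 sort. Arterial markers summed to 1128 against 341 CPM at E15.5 and to 1706 against 465 CPM in the E18.5 sort. Scrublet marked 8 of the 9 cells in the E18.5 sort and 0 of the 6 in the E15.5 sort. Of the receptors of CXCL12, Cxcr4 stood at 0, 2.78, 0 and 0 CPM in lymphatic cells against 33.2 to 62.0 CPM in other ECs, and Ackr3 at 5.58, 13, 0 and 3.20 CPM.

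Valve genes varied between the lymphatic cells. Foxc2 UMIs were found in 11 of 50, 26 of 107, 3 of 9 and 9 of 19 cells. Gja4, a connexin of arteries and lymphatic valves, stood at 781 CPM in the Foxc2-positive and 236 CPM in the Foxc2-negative lymphatic cells of the E15.5 sort, at 799 and 331 CPM in the E18.5 sort, and at 601 and 460 CPM in the library labelled null. In the library labelled control, with 3 Foxc2-positive cells, the values were 295 and 273 CPM. Cldn11, a claudin of lymphatic valves, was found in 4 of 11 Foxc2-positive against 4 of 39 Foxc2-negative cells at E15.5, and in 6 of 26 against 5 of 81 cells in the E18.5 sort. Gja4 and Cldn11 were thus higher beside Foxc2 in each sort, but Itga9, an integrin chain needed for valve leaflets, was not. Itga9 stood at 29.6 CPM in the Foxc2-positive and 64.1 CPM in the Foxc2-negative cells at E15.5, at 118 and 162 CPM in the E18.5 sort, at 253 and 190 CPM in the library labelled control and at 115 and 198 CPM in the library labelled null. Nfatc1 was near even at 59.3 and 66.4 CPM at E15.5, at 104 and 92.5 CPM in the E18.5 sort and at 63.3 and 59.4 CPM in the library labelled control. In the library labelled null it stood at 122 and 38.3 CPM. Arterial genes differed in direction between libraries. Hey1 stood at 39.5 and 13.7 CPM at E15.5, at 96.2 and 48.1 CPM in the E18.5 sort, and at 25.6 and 57.5 CPM in the library labelled null. Sox17 stood at 138 and 167 CPM, at 130 and 82.6 CPM, and at 51.2 and 172 CPM in these libraries. In the library labelled control the Foxc2-positive cells held no UMI of either, against 71.3 CPM of Hey1 and 23.8 CPM of Sox17 in the Foxc2-negative cells. In the E18.5 sort the 26 Foxc2-positive cells held 78 of 154 Cxcl12 UMIs, and Scrublet marked 5 of them and 16 of the 81 others. Their part in the Gja4 level was not tested. The split was made on a readout of the same cells and is a description. Of 12 valve genes 7 reached 50 CPM, and Nfatc1 and Itga9 were higher in lymphatic cells of all 4 libraries. Itga9 stood at 57.7, 151, 213 and 157 CPM against 9.72 to 13.2 CPM.

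Cycling was judged from a Mki67 or Top2a UMI after each cell was thinned to 2000 UMIs. The cycling share of lymphatic cells was 18% (8.58% to 31.4%) in the E15.5 sort and 12.3% (6.69% to 20.1%) in the E18.5 sort, against 18.3% and 6.39% of other ECs. In the whole lungs 2 of 9 (22.2%) and 3 of 19 (15.8%) lymphatic cells were positive, against 13.3% and 13.5% of other ECs. In the E18.5 sort the interval of other ECs (5.89% to 6.92%) overlapped that of lymphatic cells narrowly. Without the cells that Scrublet marked the shares there were 14.1% and 5.86%, and the difference was not tested. Among 8 cell cycle genes 6 reached 50 CPM, and 0 were 2-fold different in all 4 libraries.

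In the sorts, 5 of 9 surface genes and 6 of 10 matrix genes of lymphatic cells were at least 2-fold higher at E18.5 than at E15.5. The 6 matrix genes include the rule genes Reln and Mmrn1. The comparison rests on 50 and 107 cells of 1 library each, so age, litter and library cannot be told apart. Of 3477 genes with 50 CPM or more in either lymphatic sum, 332 (9.55%) were at least 2-fold higher at E18.5 and 112 (3.22%) at least 2-fold lower, against 253 (7.28%) and 167 (4.8%) for the same genes in other ECs. With library sizes scaled by TMM, which trims extreme genes, the lymphatic counts were 231 higher and 170 lower, and without the cells that Scrublet marked 373 and 160. With the gate that has no Ccl21a limit they were 561 and 302. The median log2 ratio over these genes was 0.06 in lymphatic and 0.05 in other ECs.

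At E18.5, 7 of 12 further lymphatic markers were at least 2-fold higher and 0 lower. Flt4 went from 182 to 544 CPM (log2 1.57, 1.27 to 1.90) and Thy1 from 76.2 to 256 CPM (1.74, 1.27 to 2.26). Thy1 UMIs were found in 23 of 50 and 89 of 107 lymphatic cells. The log2 ratio of Reln was 1.41 (1.14 to 1.68), that of Mrc1 1.88 and that of Fgl2 1.66, while Ccl21a (0.88), Ptx3 (0.87) and Nrp2 (0.76) were below 2-fold. Prox1 differed by 0.09 (-0.18 to 0.36), Pdpn by 0.15 and Tbx1 by 0.22, and Maf by 0.50.

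Some of these genes had other ratios in other ECs. Mmrn1 was at 647 CPM at E15.5 and 1363 CPM at E18.5 in lymphatic cells (log2 1.07, 0.90 to 1.25) and at 24.9 and 5.02 CPM in other ECs (log2 -2.20). Lyve1 differed by 1.39 in lymphatic cells and by 4.46 in other ECs. Flt4 differed by 0.75 in other ECs. The difference between the populations was not tested.

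**Figure D4:**
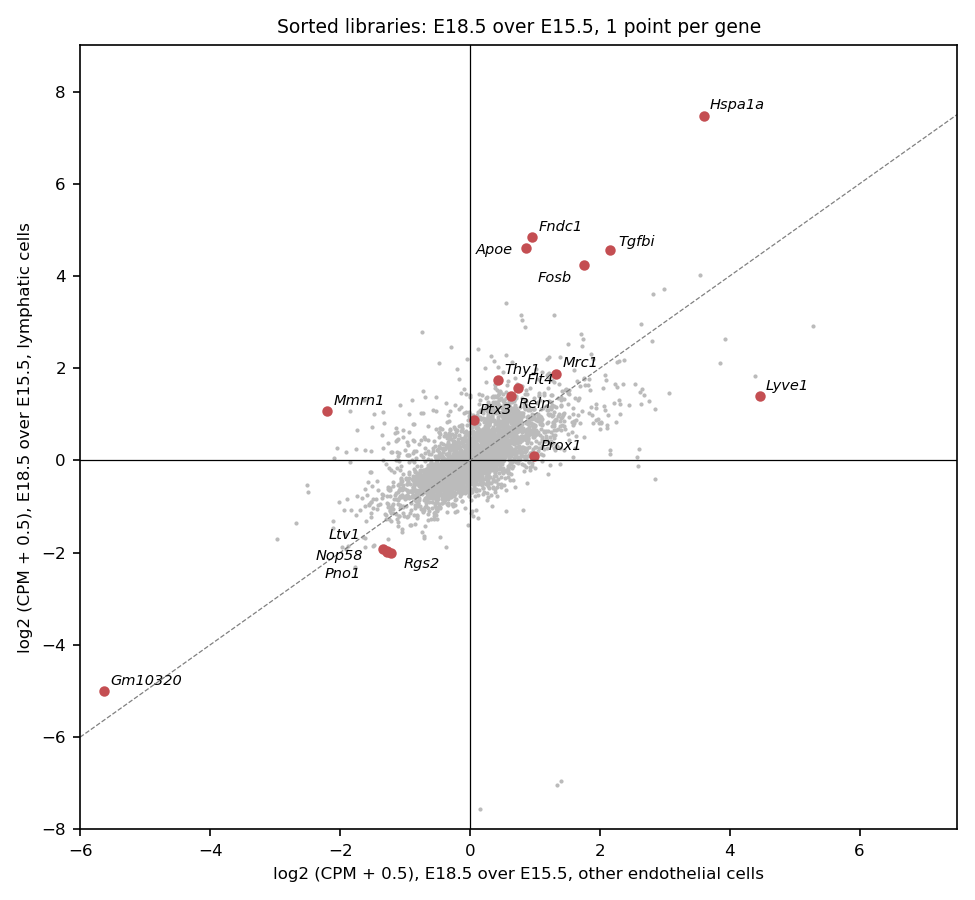
Log2 ratio of CPM plus 0.5 at E18.5 over E15.5 in other ECs (horizontal) and lymphatic cells (vertical) of the sorted libraries, 1 point a gene; the dashed line marks equal ratios. Fndc1, Apoe, Tgfbi, Fosb and Hspa1a lie above it, Mmrn1 lies in the upper left (1.07 against -2.20), and Gm10320 lies near the line.

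Ranked by size outside the rule, the largest positive ratios were those of Hspa1a, Fndc1, Apoe, Tgfbi and Fosb. The first place of Hspa1a rests on the 0.5 CPM that was added, since it had no UMI at E15.5. Fndc1, a fibronectin type III domain protein, had 2 UMIs in 2 of 50 cells at E15.5 and 131 UMIs in 70 of 107 cells at E18.5 (3.72 and 121 CPM, log2 4.85, 3.14 to 8.09). Fndc1 stood at 68.4 and 99.1 CPM in lymphatic cells of the E18.5 whole lungs as well, in 4 of 9 and 15 of 19 cells, while other ECs held 2.05 to 4.45 CPM in the 4 libraries. Among the lymphatic cells of the 4 libraries it was low only at E15.5. Tgfbi, a secreted matrix adhesion protein, went from 3.72 to 99.0 CPM (log2 4.56, 2.85 to 7.80) and stood at 0 and 63.9 CPM in whole lungs.

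Apoe, a lipid carrier, went from 1.86 to 57.4 CPM (log2 4.62, 2.41 to 10.3), but 50% of its E18.5 UMIs lay in a single cell and only 9 of 107 cells had any. Without the cells that Scrublet marked its log2 ratio was 1.30. Hspa1a, a heat shock chaperone, and Fosb, an immediate early factor, belong to genes that tissue dissociation induces. Hspa1a had 0 UMIs at E15.5 and stood at 88.8 CPM at E18.5, at least 15.9-fold higher, and at 0 and 3.20 CPM in the whole lungs of the same age. All 7 dissociation stress genes of 50 CPM or more were at least 2-fold higher at E18.5 (median log2 2.14), and Fos went from 74.4 to 586 CPM in lymphatic and from 189 to 1172 CPM in other ECs. Its part in the other age differences was not tested.

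The largest negative ratios were those of Gm10320, Rgs2, Nop58, Pno1 and Ltv1. Gm10320, an unnamed gene model, went from 134 to 3.70 CPM (log2 -5.0) and by a like amount in other ECs (-5.63). Nop58, Pno1 and Ltv1, factors of ribosome assembly, had log2 ratios of -1.98, -1.97 and -1.93 in lymphatic cells and of -1.28, -1.28 and -1.34 in other ECs. Rgs2, a regulator of G protein signalling, went from 76.2 to 18.5 CPM (log2 -2.01), but its 41 UMIs at E15.5 lay in 8 cells, and without the cells of 3 or more Cxcl12 UMIs its log2 ratio was 0.88. Fabp5, a fatty acid binding protein, went from 491 to 154 CPM (log2 -1.66), and Nts, which encodes neurotensin, from 387 to 230 CPM (-0.75).

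The whole-lung comparison at E18.5 rests on 9 lymphatic cells in the library labelled control and 19 in the library labelled null. Xist also differed between these libraries, so label, sex make-up and library cannot be told apart. Of 3744 genes with 50 CPM or more in either sum, 367 (9.8%) were at least 2-fold higher and 301 (8.04%) at least 2-fold lower in the library labelled null, against 6 (0.16%) and 17 (0.454%) for the same genes in other ECs. With the SoupX-adjusted values 856 genes were higher and 402 lower, and with the gate that has no Ccl21a limit 148 were higher and 70 lower. The genes that reached 50 CPM changed in both settings, so these counts are not shares of 3744. The median size of the log2 ratio, without its sign, was 0.44 in lymphatic and 0.0973 in other ECs, whose sums held 1836 and 2748 cells. In the lymphatic cells of the library labelled control 1 UMI was worth 7.60 CPM, and levels up to 22.8 CPM rested on 1 to 3 UMIs.

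The rule genes, whose levels the gate conditions, differed by less than 2-fold between the whole lungs, and so did Flt4 and Nrp2. Ccl21a was at 7608 CPM in the library labelled control and 7053 CPM in the library labelled null (log2 -0.11), and Prox1 at 433 and 454 CPM (0.07, -0.39 to 0.54). Flt4 differed by 0.27 (-0.14 to 0.69), Nrp2 by -0.02 (-0.29 to 0.25), Nrp1, with 4 and 22 UMIs, by 1.20 (-0.35 to 3.21), Mmrn1 by 0.44 (0.18 to 0.71) and Reln by 0.54 (0.11 to 0.98). The intervals of Prox1, Flt4, Nrp2 and Nrp1 included 0, and those of the rule genes Mmrn1 and Reln did not. They cover counting error of UMIs and not the spread between cells or libraries, so no difference was tested.

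Of the 12 further lymphatic markers, 3 were at least 2-fold higher and 1 at least 2-fold lower in the library labelled null. Over all 3744 genes the shares were 9.8% and 8.04%. Lyve1 and Fgl2 were among the higher. Nts stood 100-fold above other ECs in the library labelled control and 19.9-fold above them in the library labelled null. Lyve1 stood at 897 and 2106 CPM (log2 1.23, 0.95 to 1.53; 0.82 with the SoupX-adjusted values), with a median of 11 and 35 UMIs a cell and -0.35 in other ECs. Fgl2 stood at 357 and 946 CPM (1.40, 0.96 to 1.88; 1.22 adjusted), against -1.62 in other ECs. Single cells of the libraries overlapped for Lyve1, with 6 to 26 UMIs in the library labelled control and 4 to 112 in the library labelled null. Ptx3 was lower in the library labelled null (log2 -0.57, -0.93 to -0.21). Cxcl12 had 1 UMI in the library labelled control and 40 in the library labelled null, a log2 ratio of 3.99 (1.51 to 9.41), but all 40 lay in 1 cell and the other 18 lymphatic cells held none.

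Most genes ranked highest by size came from few cells. Ptprr (34 UMIs), Ifi27l2a (27), Gimap9 (20), Tgfbi (20) and Dkk2 (18) had no UMI in the library labelled control, where the bounds were at least 4.77-fold, 3.78-fold, 2.80-fold, 2.80-fold and 2.52-fold. All UMIs of Ptprr and of Ifi27l2a lay in 1 cell each, and 94.4% of those of Dkk2. Gimap9, a GTPase of immune and endothelial cells, had a UMI in 13 of 19 cells. It stood at 66.9 and 62.9 CPM in the lymphatic cells of the sorts.

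In the other direction Cxcl15, Sfta2, Atp1b1, Sftpd and Cldn10 led with 38, 35, 32, 29 and 27 UMIs in the library labelled control and none in the library labelled null, and all UMIs of each lay in a single cell, which Scrublet marked. Cxcl15, Sfta2 and Sftpd are products of lung epithelium, whose markers summed to 16303 CPM in the lymphatic cells of that library and to 1768 CPM in its other ECs. Without cells of 3 or more epithelial UMIs, 6 cells remained in the library labelled control and 18 in the library labelled null, and 487 genes were at least 2-fold higher and 472 lower. With fewer cells each UMI weighs more and other genes reach 50 CPM, so these counts are not shares of the 3744 genes.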

How the data were processed

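Droplet 3′ tags (10x Chromium v3) were sequenced from 6 lung libraries, and 4 held enough lymphatic cells to describe. The authors aligned reads to mm10 with Cell Ranger (3.1 per the submitters' notes, which also name Seurat 3.2.2) and deposited raw UMI counts per gene and cell barcode, with no normalization. The authors' second deposited tables of the whole lungs hold expected counts, adjusted with SoupX for free RNA and no longer whole. They served as an alternative, and for the rule that names genes between the whole lungs.

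Groups followed the labels. The whole-lung data carry file names with the genotypes the other way round. Cells were gated as in the text, counts were summed per population and scaled to CPM, and log2 ratios added 0.5 CPM. Free RNA gives stray UMIs, so the share of other ECs with a Ccl21a UMI is printed beside the lymphatic levels. Intervals are exact Poisson, conditional binomial or Clopper-Pearson intervals at 95%, and a count of 0 was set to a floor of 3 UMIs. Ratios and intervals were checked on simulated counts. Doublets were called with Scrublet and kept; in the E18.5 sort, where its automatic limit marked 0 cells, the top 6% of scores were taken. Gated venous ECs had at least 1 Nr2f2 and 2 Vwf UMIs.

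Named genes were those of the rule and of the lists, the 10 highest and 10 lowest mean ratios of lymphatic over other ECs with the same direction in all 4 libraries, and the 5 largest differences each way between ages and between whole lungs (for these with the same direction after SoupX). A minimum of 50 CPM applied, and haemoglobin, mitochondrial, ribosomal and sex-linked genes were left out of the rankings. A ranked gene is not reported here. The members and lists were chosen with earlier results of these data known. A minimum of 50 cells for a population was set but not applied to the 9 and 19 lymphatic cells of the whole lungs, whose numbers are printed beside their values. Python 3.11.15, numpy 2.4.6, scipy 1.17.1, pandas 2.3.3, scanpy 1.11.5 and matplotlib 3.10.9 were used, and R 4.3.3 with edgeR 4.0.16 for TMM factors alone. The alternatives were other gates, thresholds, scalings and reference cells, the removal of 1 library, and 4 choices made after seeing the data.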

Additional observations from a re-analysis of the deposited data

Results flagged for a closer look

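In the sorts, 3 listed genes differed by at least 2-fold between E15.5 and E18.5, in opposite directions in lymphatic and other ECs. Only listed genes with 50 CPM or more in either lymphatic sum were compared, and the share over all genes was not counted. Mmrn1, a rule gene whose level helped to choose the cells, had a log2 ratio of 1.07 in lymphatic cells and -2.20 in other ECs. The haemoglobin genes Hba-a1 and Hbb-bs had log2 ratios of -7.04 and -6.95 in lymphatic cells and of 1.34 and 1.40 in other ECs. At E15.5 the lymphatic cells held 1644 CPM of Hba-a1 and 3041 CPM of Hbb-bs. Only 4% of cells held 3 or more erythroid UMIs, so these levels came from few cells. With 1 library an age, the difference between the populations was not tested.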

How the results depend on the processing

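With 1 library a group the values carry counting error only, and the whole-lung comparison rests on 9 and 19 cells. Of 622 values of named genes under the alternatives, 556 stayed within their spread or interval, 64 did not and 2 reversed; of 120 counts and shares, 96 were within their range and 24 were not. The reversals were Rgs2 between ages (0.88 without lymphatic cells of 3 or more Cxcl12 UMIs) and Cldn10 between whole lungs (0.45 with the gate below). The cause was not tested.

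A gate of at least 2 Prox1, Mmrn1 and Reln UMIs with no Ccl21a limit, which takes in the E15.5 ECs with Mmrn1, gave shares of 5.92%, 1.56%, 1.46% and 1.66%, and 3 genes higher and 21 lower than other ECs, 561 higher and 302 lower at E18.5, and 148 higher and 70 lower in the library labelled null. A minimum of 20 CPM, which tests more genes, gave 179 and 186, 838 and 238, and 1044 and 886. Leaving out 1 library gave 107 to 160 genes higher and 120 to 215 lower than other ECs, the largest of both without the E15.5 sort. The genes lower than other ECs were 184 without both whole lungs, a choice made after seeing the data. TMM gave 170 genes lower at E18.5. In the library labelled null SoupX-adjusted values gave 856 genes higher, and leaving out cells with 3 or more epithelial UMIs, also chosen after seeing the data, 472 lower. The genes that reached the minimum changed between these settings, so the counts have no common total. Without thinning the cycling shares of lymphatic cells were 36.0% at E15.5 and 22.4% in the E18.5 sort. No paired analysis was possible because each group had 1 library and no test was run.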
